A study of Mus musculus with 4 samples.

Results

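Nrgn, Etv1, Olfm1, Cntnap5a and Ndnf are 5 genes, of 32286 in the count files and of 22014 with at least 1 UMI in any barcode. They were chosen by their summed level in Purkinje-like cells, which in both Engrailed mutant libraries lay beyond that of both control libraries. Their Purkinje-like values are therefore a description and carry no test. The measurement was single-cell RNA sequencing, by 3' tags with unique molecular identifiers (UMIs), of tdT+ cells sorted from the cerebellum of E15.5 mouse embryos. Control embryos were Ptf1aCre/+; R26LSL-tdT/+. En1/2 CKO embryos carried the same Cre and reporter alleles together with En1lox/lox and En2lox/lox, so both genotypes shared a single Ptf1aCre allele and a single reporter allele. Cre from the Ptf1a locus marks cells that have expressed Ptf1a and their descendants, and it removes the floxed Engrailed genes only in that lineage. Each genotype had 2 libraries, each from pooled embryos whose number is not given, and spread between libraries is spread between pools.

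Purkinje cells are the output neurons of the cerebellar cortex, and in the embryo they arise from Ptf1a-expressing progenitors and settle into molecularly distinct subtypes before they form their layer. En1 and En2 encode homeodomain transcription factors that pattern the midbrain and cerebellum. Nrgn encodes neurogranin, a postsynaptic protein that binds calmodulin at low calcium and is a substrate of protein kinase C. Etv1 encodes an ETS transcription factor that lies downstream of Fgf receptors in several tissues. Olfm1 encodes a secreted olfactomedin glycoprotein of neurons that binds Nogo receptors and AMPA receptor complexes. Cntnap5a encodes a transmembrane adhesion protein of the neurexin superfamily, and Ndnf encodes a secreted glycoprotein with fibronectin type III domains.

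The genes lie on 5 chromosomes of GRCm38, with gene limits from the GENCODE annotation. Nrgn spans chr9:37544492-37552904 on the minus strand. The other genes lie on the plus strand, Etv1 at chr12:38779380-38870484, Olfm1 at chr2:28192992-28230736, Cntnap5a at chr1:115684756-116587323 and Ndnf at chr6:65671590-65712326. En1 lies at chr1:120602418-120607992, so that 4.02 Mb separate Cntnap5a from a floxed locus. RefSeq promoters (GRCm38.p6) were in the table used here for 3 of the genes, 1 for Nrgn and 2 each for Etv1 and Olfm1. The 250 bases before each start site were searched on both strands for TAATTA and TAATTG, short homeodomain motifs of the kind that Engrailed proteins bind. Of the 5 promoters, 1 held a match, against 11.3% of the 32851 promoters in the table. It is shown because Engrailed loss is what separates the genotypes, with the match in capitals, next to the Nrgn promoter, which had no match. The Etv1 stretch is chr12:38783461-38783710 on the plus strand, and the match begins 132 bases before the start site. The Nrgn stretch is chr9:37552746-37552995 on the minus strand.
Etv1, second start site: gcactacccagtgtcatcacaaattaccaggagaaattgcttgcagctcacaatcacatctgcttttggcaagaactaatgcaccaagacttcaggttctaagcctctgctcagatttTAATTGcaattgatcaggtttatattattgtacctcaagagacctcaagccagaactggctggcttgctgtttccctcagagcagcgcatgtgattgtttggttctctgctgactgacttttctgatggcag
Nrgn: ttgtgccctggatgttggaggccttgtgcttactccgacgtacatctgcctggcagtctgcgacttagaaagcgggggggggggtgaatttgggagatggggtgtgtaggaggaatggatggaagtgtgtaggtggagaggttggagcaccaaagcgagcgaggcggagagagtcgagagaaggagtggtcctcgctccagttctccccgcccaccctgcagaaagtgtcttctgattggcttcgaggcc
A match is a description of letters and not a binding site, and no binding was measured.

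The libraries differed in ways that touch each value. After cells with under 500 genes or over 10% mitochondrial UMIs and called doublets were left out, control replicates 1 and 2 kept 9955 and 1163 cells, and En1/2 CKO replicates 1 and 2 kept 4893 and 7300. Libraries held 5305154 to 21021428 UMIs, and pairs of libraries shared 10 to 32 barcodes, of which 1 to 20 were kept in both. The targeted En2 lay lower in both mutants in Purkinje-like cells, at 117 and 99.1 CPM (UMIs scaled to a common total) in the control pools, against 76.0 and 38.6 CPM in the mutant pools, and in interneuron-like cells, at 125 and 103 CPM in the control pools, against 39.7 and 24.5 CPM in the mutant pools. The targeted En1 did not, with 230.0 and 235 CPM in the control pools, against 235 and 224 CPM in the mutant pools among Purkinje-like cells, and 133 and 232 CPM in the control pools, against 141 and 145 CPM in the mutant pools among interneuron-like cells. Which exons the lox sites flank is not given in the sources used here, so a 3' tag of En1 may lie outside the deleted stretch and then checks nothing.

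Purkinje-like cells were 2 of 19 clusters, here called the Nrgn/Nrp2 subtype (led by Nrgn, Islr2, Fstl5 and Nrp2) and the Nefl/Cntn5 subtype (led by Snhg11, Fgf3, Cntn5 and Nefl). Of the 15 Purkinje markers, 10 were raised in the first and 12 in the second, including Skor2, Calb1, Foxp2 and Ebf1 in both. In control replicate 1, Skor2 was seen in only 2.60% and 2.20% of cells of the first and second, and Calb1 in 3.99% and 4.68%. Foxp2 was seen there in 56.5% and 45.5%. The leading genes of the second held 0 Purkinje markers. Nrgn, Cdh9 and Nrp2 helped to define the first cluster, so its high Nrgn is not a finding. The class held 940, 28, 429 and 433 cells in control replicates 1 and 2 and mutant replicates 1 and 2, with 1373847, 80731, 828519 and 777798 UMIs. Control replicate 2 therefore sets a floor of 37.2 CPM (3 counts), against 2.18 to 3.86 CPM elsewhere. Its Nrgn, Etv1 and Ndnf values rest on 2, 1 and 2 UMIs. When the 5 genes were left out of the clustering, 1815 of the 1830 Purkinje-like cells were Purkinje-like again, among 1975, and all 5 genes still separated the genotypes. Since these are mostly the same cells, the kept separation is no check of the choice.

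Quality and the markers of some other cell types moved with genotype in this class. The median mitochondrial share was 3.80% and 5.86% in control Purkinje-like cells and 7.00% and 6.86% in mutant ones. The summed level of the 15 Purkinje markers was 5176 and 7977 CPM in the control pools, against 4017 and 4315 CPM in the mutant pools. Ebf1 was the largest single part of that sum in each library. In the Nefl/Cntn5 subtype Ebf1 was at 1699 and 2469 CPM in the control pools, against 1167 and 1130 CPM in the mutant pools. In the Nrgn/Nrp2 subtype it overlapped, at 3316 and 1736 CPM against 1551 and 1956 CPM. Foxp2 overlapped in both subtypes. In the Nrgn/Nrp2 subtype Bcl11a and Lhx5 were higher in both mutants, and Rora, Dab1, Car8, Pcp4 and Itpr1 were lower. Rora was at 170 and 254 CPM in the control pools there, against 70.5 and 119 CPM in the mutant pools. Dab1 was at 111 and 169 CPM against 31.7 and 50.1 CPM. In control replicate 2 the lower markers of that subtype rest on 1 to 6 UMIs each. Foxp4 and Itpr1 were lower in both mutants of the Nefl/Cntn5 subtype. Of 11 glutamatergic neuron markers, 8 and 3 were detected in controls and 9 and 7 in mutants, summing to 432 and 347 CPM against 741 and 611 CPM. Lmx1a was at 0 in all but mutant replicate 1, Tbr1 in control replicate 2 and mutant replicate 2, and Slc17a6 in control replicate 2. All 14 radial progenitor markers were detected except in control replicate 2, which had 11 and lacked Hopx, and they summed to 2293 and 3159 CPM in the control pools, against 1405 and 2269 CPM in the mutant pools. All 14 Ptf1a intermediate progenitor markers were detected except in control replicate 2, which had 11 and lacked Ptf1a, and they summed to 641 and 657 CPM in the control pools, against 407 and 441 CPM in the mutant pools. All 12 cycling markers were detected in each library and summed to 351 and 842 CPM in the control pools, against 169 and 332 CPM in the mutant pools. Other lists overlapped between genotypes. GABAergic interneuron markers summed to 1256 and 557 CPM in the control pools, against 1324 and 989 CPM in the mutant pools. Granule lineage markers summed to 1250 and 780 CPM against 1784 and 1071 CPM, and astroglia markers to 305 and 235 CPM against 274 and 365 CPM. Erythroid markers summed to 1909 and 24.8 CPM against 3495 and 1097 CPM. The part of quality and of other cell types in the values below was not tested.

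Nrgn, Etv1 and Olfm1 stood higher in mutant Purkinje-like cells, and Cntnap5a and Ndnf stood lower. By choice, 3 genes had both mutants above both controls and 2 had both below. Among the 8723 genes that passed the filter on low counts, 17.1% had both mutants above and 12.7% had both below (29.7% in either direction), and nothing is read from these counts. Nrgn was at 188 CPM in control replicate 1 and 24.8 CPM in control replicate 2, and at 849.7 and 334 CPM in mutant replicates 1 and 2. The mutants differed from each other by more than the lower one differed from control replicate 1, and the log2 fold change was 2.12. Etv1 was at 44.4 and 12.4 CPM in the control pools, against 99.0 and 117 CPM in the mutant pools, a log2 fold change of 1.42. Both mutants lay well above control replicate 1, and control replicate 2 had a single UMI.

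Olfm1 was at 510.2 and 198 CPM in the control pools, against 819.5 and 739 CPM in the mutant pools. The mutants lay close together and the controls far apart, and the log2 fold change of 1.04 was 0.61 without control replicate 2. Cntnap5a was at 256 and 248 CPM in the control pools, against 53.1 and 81.0 CPM in the mutant pools, a log2 fold change of -1.91. It was the gene with the most even controls, and its lower control was 3.06 times its higher mutant. Ndnf was at 56.0 and 24.8 CPM in the control pools, against 7.24 and 9.0 CPM in the mutant pools, a log2 fold change of -2.65 on 6 and 7 mutant UMIs. Without control replicate 1 the changes of Nrgn, Etv1, Olfm1 and Ndnf moved to 4.62, 3.15, 2.02 and -1.54, and without mutant replicate 1 that of Nrgn moved to 1.40. All 5 also separated the genotypes when cells with a UMI of Sncg or Prph, genes of other neurons, were left out. That kept 929 of 940, 28 of 28, 424 of 429 and 415 of 433 cells. These are nearly the sums that chose the genes, so the separation there is no check of them.

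**Figure D1:**
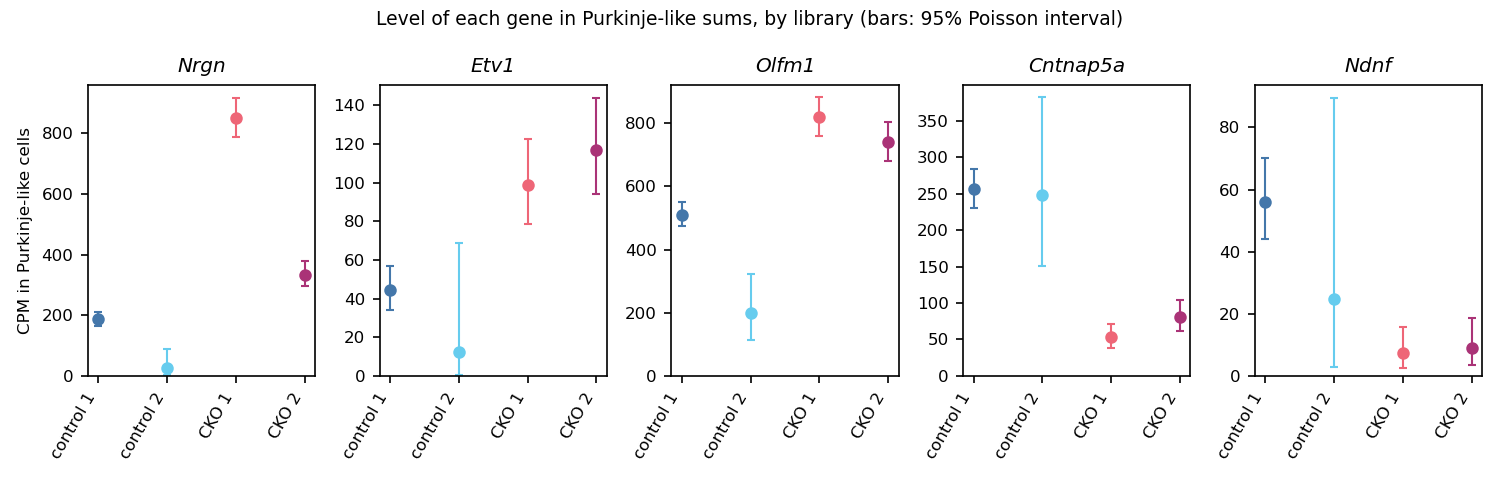
CPM of each gene in the summed Purkinje-like cells of each library (points), with exact Poisson 95% intervals that cover counting error only. Both mutant points of Nrgn, Etv1 and Olfm1 lie above both controls and those of Cntnap5a and Ndnf below, while the intervals of control replicate 2, from 28 cells, are wide.

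The share of cells with a UMI gave a narrower picture for Nrgn. Each cell was thinned to 1000 UMIs, which left out 152, 5, 93 and 150 cells. Nrgn was then seen in 14.6% of 788 cells (exact Clopper-Pearson 95% interval 12.2% to 17.3%) of control replicate 1 and in 28.6% of 336 cells (23.8% to 33.7%) of mutant replicate 1. In mutant replicate 2 it was seen in 17.7% of 283 cells (13.4% to 22.6%), an interval that overlaps that of control replicate 1. In control replicate 2 it was seen in 0 of 23 cells, which allows a share of cells with a UMI of up to 13.04% by 3 counts and 14.8% by the exact interval. Unthinned, the shares were 18.9% and 7.14% in controls and 27.5% and 19.4% in mutants, at median depths of 1333, 2848, 1334 and 1138 UMIs.

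For the other genes the thinned intervals of both mutants lay apart from that of control replicate 1, except that mutant replicate 2 overlapped it for Ndnf. Such intervals count cells within a pool and do not cover spread between pools. They are a description, since this contrast chose the genes. Etv1 was seen in 3.68% of control replicate 1 cells against 8.63% and 8.48% of mutant cells, and Olfm1 in 33.5% against 49.7% and 45.6%. Cntnap5a was seen in 16.4% against 3.87% and 8.48%, and Ndnf in 4.19% against 0.893% and 1.77%. Control replicate 2 gave 13.04% for both Olfm1 and Cntnap5a, or 3 of 23 cells, and none for Etv1 and Ndnf. Unthinned, Cntnap5a was seen in 18.9% and 46.4% of control cells, against 6.06% and 10.9% of mutant cells. As a level of free RNA, microglia-like cells (cluster 15, median 3431 to 5558 UMIs) had Nrgn in 0% to 2.13% after thinning and 1.59% to 7.87% before. They had Olfm1 in 0% to 3.66% after thinning and no UMI of Cntnap5a or Ndnf. Etv1 was in 2.13% to 4.84% of them after thinning, a range that holds the 3.68% of control replicate 1 Purkinje-like cells, and their summed Etv1 level of 28.3 to 59.9 CPM holds that of control replicate 1 too. Interneuron-like cells had less Etv1, at 12.4 and 5.43 CPM in control replicates 1 and 2. Whether the Etv1 of microglia-like cells is free RNA was not tested.

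A small set of deep cells held much of the mutant Nrgn. The 10 cells with most Nrgn UMIs held 42.2% and 61.9% of all Nrgn UMIs in the mutants, with up to 42 and 37 UMIs in a cell, against 15.1% and up to 5 UMIs in control replicate 1. Those cells had a median of 5167 and 4626 UMIs, where the remaining mutant cells had 1315 and 1127. Their Purkinje markers summed to 3768 and 3053 CPM, against 4033 and 4387 CPM in the rest, and none had a UMI of Sncg or Prph. Without the 10 highest cells of each library, Nrgn was at 162 CPM in control replicate 1 and at 523 and 135 CPM in the mutants, so that mutant replicate 1 stayed above that control and mutant replicate 2 lay below it. The 10 cells are a larger part of the 429 and 433 mutant cells than of the 940 control cells. Whether such cells were doublets that the caller missed was not tested.

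Split by depth, cells with under 1500 UMIs had close Nrgn levels in 3 of the libraries. In those cells Nrgn was at 186 CPM (95% Poisson interval 155.5 to 219.6) in control replicate 1, and at 217 CPM (166 to 279) and 215 CPM (167 to 273) in the mutants. In cells with 3000 UMIs or more it was at 240.2 CPM (25 cells) and 36.6 CPM (13 cells) in controls and 1441 CPM (58 cells) and 467 CPM (61 cells) in mutants. The log2 fold change was 0.28 in the cells with under 1500 UMIs and 3.01 in those with at least 2000. Olfm1 differed at each depth, with 481 CPM in control replicate 1 and 737 and 651 CPM in mutants under 1500 UMIs. Cntnap5a also did, with 243 CPM against 81.9 and 80.2 CPM. Control replicate 2 had only 6 cells in that stratum, and 3 of the 5 genes then kept both mutants beyond both controls, the exceptions being Etv1, with 1 UMI in those 6 cells, and Ndnf, with none.

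**Figure D2:**
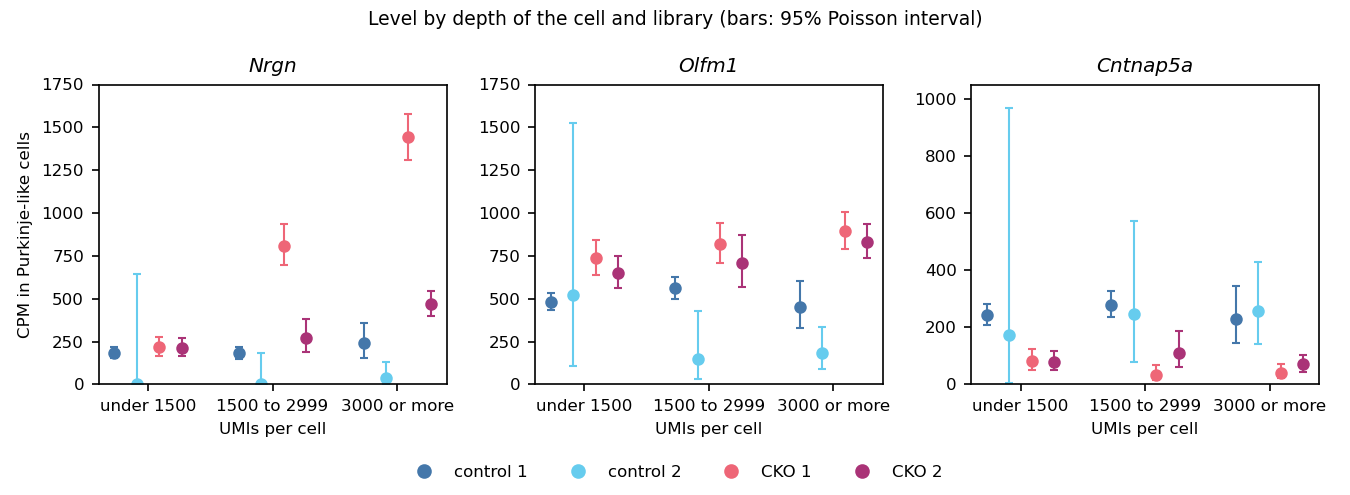
CPM of Nrgn, Olfm1 and Cntnap5a in Purkinje-like cells by library (colours) and by UMIs per cell (x axis), with exact Poisson 95% intervals. Nrgn is at 186, 217 and 215 CPM in the shallow cells of control replicate 1 and the mutants and parts from there with depth, while Olfm1 and Cntnap5a differ in each stratum.

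The 5 genes were then summed within each Purkinje subtype. In the Nrgn/Nrp2 subtype (577, 8, 278 and 221 cells) all 5 genes had both mutant values beyond both control values. The same share over all genes was not computed by subtype. These cells are part of the sums that chose the genes, so nothing is read from that count. Control replicate 2 had 1 to 6 UMIs of each gene there, and its floor was 127 CPM. Nrgn was at 279 and 84.7 CPM in the control pools, against 1225 and 729 CPM in the mutant pools. In the Nefl/Cntn5 subtype (363, 20, 151 and 212 cells) Nrgn was low and overlapped, at 40.0 and 0 CPM in the control pools, against 34.4 and 58.9 CPM in the mutant pools, where 0 UMIs in control replicate 2 set a floor of 52.5 CPM. The difference between the subtypes was not tested, since Nrgn also defined them.

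By its values Etv1 was higher in the mutants of both subtypes. In the Nrgn/Nrp2 subtype the floor of control replicate 2 lies above both mutants of Etv1, so that library cannot be placed there. In the Nefl/Cntn5 subtype the floor lies below both mutants of Etv1. Etv1 was at 34.2 and 42.3 CPM in the control pools, against 79.3 and 93.9 CPM in the mutant pools of the Nrgn/Nrp2 subtype. It was at 60.9 and 0 CPM against 142 and 133 CPM in the Nefl/Cntn5 subtype. Olfm1 was likewise higher in both, at 470.3 and 169 CPM against 793 and 648 CPM in the first and 575 and 210.1 CPM against 876 and 803 CPM in the second. Cntnap5a was lower in both, and its mutant level was lower in the Nrgn/Nrp2 subtype (31.7 and 50.1 CPM) than in the Nefl/Cntn5 subtype (99.5 and 103 CPM). Its control levels were 245 and 254 CPM in the first and 274 and 245 CPM in the second, but with the 5 genes left out of the clustering control replicate 1 was at 109 CPM in the first and 429 CPM in the second. Control replicate 2 was then at 263 and 245 CPM. Ndnf was at 48.3 and 84.7 CPM in the control pools, against 5.29 and 18.8 CPM in the mutant pools of the first. The value of control replicate 2 lies under its floor there. In the second it was at 68.5 and 0 CPM in the control pools, against 11.5 and 2.18 CPM in the mutant pools. There 0 UMIs in control replicate 2, with its floor of 52.5 CPM, cannot place that library above or below the mutants. Giving the subtypes equal weight in each library left both mutants beyond both controls for all 5, with Nrgn at 159.7 and 42.3 CPM against 629.9 and 394 CPM. Those values come from the cells that chose the genes and are a description.

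**Figure D3:**
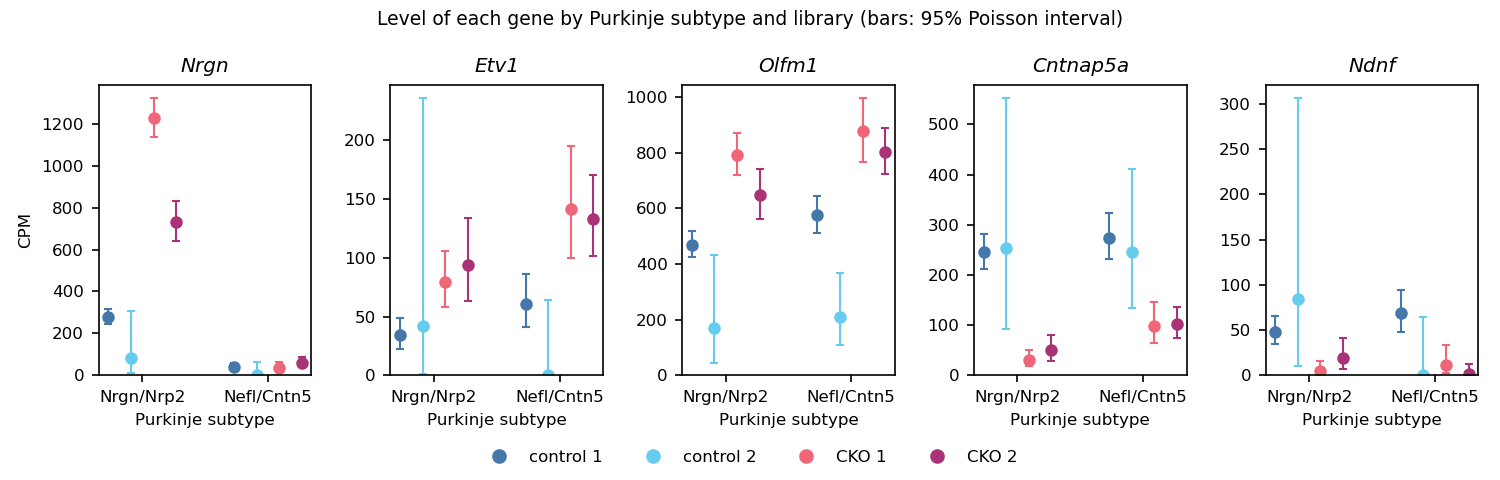
CPM of each gene in the 2 Purkinje subtypes (x axis) by library (colours), with exact Poisson 95% intervals. By their values, Etv1, Olfm1 and Cntnap5a separate the genotypes in both subtypes. Nrgn and Ndnf do so in the Nrgn/Nrp2 subtype (8 cells in control replicate 2). There the Nrgn, Etv1 and Ndnf values of control replicate 2 lie under its floor, which lies above both mutant Etv1 values. In the other subtype Nrgn overlaps and the floor of control replicate 2 lies above the mutant Ndnf values.

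Cells outside the Purkinje-like class did not choose the genes and were tested. In interneuron-like cells, the Pax2-positive GABAergic cells of clusters 0, 1 and 5, Olfm1 and Cntnap5a lay lower in both mutants, as did 13.9% of the 11237 genes tested (32.4% separated in either direction). Olfm1 was at 207 and 141 CPM in the control pools, against 114 and 102 CPM in the mutant pools (log2 fold change -0.72, SE 0.24), the opposite direction to Purkinje-like cells. Cntnap5a was at 83.1 and 34.4 CPM in the control pools, against 26.6 and 24.8 CPM in the mutant pools (-1.33, SE 0.36). Neither passed edgeR's quasi-likelihood test, with an adjusted p of 0.9998 for each, and the Cntnap5a difference was smaller than that between the controls. Nrgn overlapped, at 61.7 and 39.8 CPM in the control pools, against 67.1 and 59.2 CPM in the mutant pools (0.23, SE 0.25), as did Etv1 at 5.43 to 12.4 CPM (-0.25, SE 0.36) and Ndnf at 4.38 to 6.04 CPM (-0.0013, SE 0.42).

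In that class no gene passed edgeR at 0.05, or 0% of those tested, and DESeq2 called 2. By edgeR, 207 genes upward and 260 downward of the 11237 tested had an unadjusted p under 0.05. With no change in any gene, a share of 0.05 is expected there, and nothing is read from these counts. Without control replicate 2, edgeR called Olfm1 (adjusted p = 0.00019) and Cntnap5a (adjusted p = 3.9e-06), with the lone control taken to vary like the mutants. That fit called 1865 genes in all. Without the filter on low counts edgeR called Cntnap5a (adjusted p = 0.0071). The adjusted p ranged over the alternatives from 0.00019 to 0.99999 for Olfm1 and from 3.9e-06 to 0.99999 for Cntnap5a. The libraries drew on different clusters, since clusters 0 and 1 held 2579 and 2180 of the 4905 cells of control replicate 1, and cluster 5 held 169 of 250 in control replicate 2, 720 of 1389 and 535 of 1748 in the mutants. Olfm1 was lower in both mutants within each of clusters 0, 1 and 5, with control means of 128, 255 and 140.2 CPM and mutant means of 68.3, 184 and 103 CPM. Cntnap5a was lower in clusters 0 and 5 and overlapped in cluster 1.

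In progenitor-like cells (clusters 3, 13, 6 and 7), 4 of the 5 genes passed the filter and none separated the genotypes, where 37.3% of genes did. Etv1 was at 34.1 and 59.7 CPM in the control pools, against 58.6 and 61.4 CPM in the mutant pools (log2 fold change 0.40, SE 0.33, edgeR adjusted p = 0.83). Olfm1 was at 128 and 71.6 CPM against 82.3 and 79.3 CPM (-0.35, SE 0.28), Nrgn at 47.1 and 5.30 CPM against 24.2 and 30.1 CPM (-0.20, SE 0.63), and Ndnf at 37.5 and 33.2 CPM against 28.9 and 34.0 CPM (-0.20, SE 0.23). Cntnap5a did not pass, with 35 and 0 UMIs in controls and 9 and 10 in mutants. No gene of 12192 was called by edgeR (0%), and DESeq2 called 4. By edgeR, 356 genes upward and 419 downward had an unadjusted p under 0.05. As in interneuron-like cells, nothing is read from these counts. Without control replicate 2, Nrgn, Etv1 and Olfm1 were called at log2 fold changes of -0.77, 0.84 and -0.63, and without control replicate 1 Nrgn was called at 2.26, the other way.

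Over all cells outside the Purkinje-like class, Cntnap5a alone of the 5 separated the genotypes, at 46.2 and 8.37 CPM in the control pools, against 7.42 and 6.83 CPM in the mutant pools (log2 fold change -2.05, SE 0.74, edgeR adjusted p = 0.90). There 12.7% of 14506 genes had both mutants lower and 35.9% separated in either direction, and the makeup of these cells differed between libraries. The other log2 fold changes were -0.65 (SE 0.34) for Olfm1, 0.040 (SE 0.46) for Etv1, -0.011 (SE 0.57) for Nrgn and -0.080 (SE 0.21) for Ndnf. No gene was called by edgeR (0%), and DESeq2 called 56. By edgeR, 428 genes upward and 317 downward of the 14506 had an unadjusted p under 0.05, and nothing is read from these counts either. Without control replicate 2, edgeR called Nrgn, Etv1, Olfm1 and Cntnap5a at -0.61, 0.84, -1.02 and -2.74, and without control replicate 1 it called Nrgn at 1.23.

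Across clusters the 5 genes differed in where they were highest, by the mean over both genotypes. Nrgn was highest in Purkinje cluster 2, with a mean of 579.6 CPM over the 4 libraries and a range of 84.7 to 1225 CPM. Cluster 0 came next at 62.1 CPM (16.9 to 95.4), and its range overlapped those of the clusters that follow. Olfm1 was highest in Purkinje clusters 11 (616 CPM, 210.1 to 876) and 2 (520.2 CPM, 169 to 793), which overlapped, ahead of interneuron-like cluster 1 (219.6 CPM, 181 to 292). Cntnap5a had the same leading clusters, 11 (180.3 CPM) and 2 (145 CPM), then 1 (62.6 CPM). In the mutants alone cluster 1 (55.4 CPM) came before cluster 2 (40.9 CPM). It was at 0 to 10.5 CPM in each library of progenitor-like clusters 6, 7 and 13 and of cluster 9, at 0 to 19.1 CPM in progenitor-like cluster 3, and had no UMI in microglia-like cluster 15.

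By that mean Etv1 and Ndnf were highest in astroglia-like cluster 9, whose leading genes hold as many markers of the oligodendrocyte lineage (Olig1, Olig2) as of astroglia (Bcan, Slc6a11). Etv1 was there at 109 CPM (58.0 to 162) and Ndnf at 86.2 CPM (53.0 to 144). Purkinje cluster 11 followed for Etv1 at 83.9 CPM, then radial progenitor-like cluster 6 at 75.0 CPM, and these ranges overlapped. In the mutants alone Etv1 was higher in Purkinje cluster 11 (137 CPM) than in cluster 9 (107 CPM). Ndnf came next in Ptf1a intermediate progenitor-like cluster 13 (53.0 CPM, 45.6 to 61.6) and in cluster 6 (46.4 CPM, 34.9 to 54.1), ahead of Purkinje cluster 2 at 39.3 CPM. In the controls alone Purkinje cluster 2 (66.5 CPM) came before clusters 13 (58.6 CPM) and 6 (48.4 CPM). In cluster 9 neither gene separated the genotypes.

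**Figure D4:**
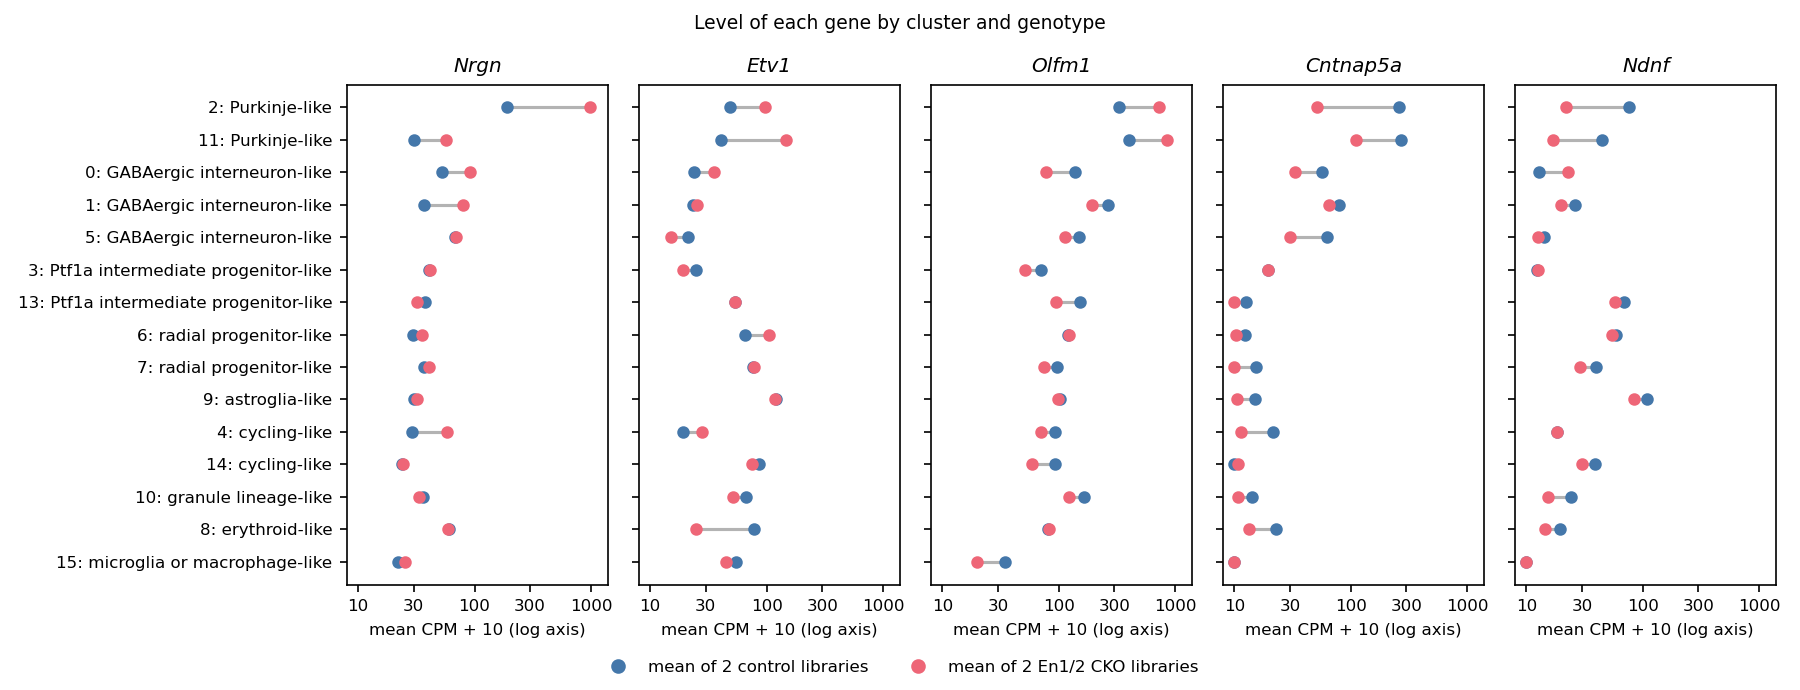
Mean CPM plus 10 (log axis) of each gene in control and En1/2 CKO libraries (2 each) for 15 clusters, named by their markers. Olfm1 lies to the right in mutants of the Purkinje-like clusters and to the left in those of interneuron-like clusters 0, 1 and 5. It lies to the left in other clusters too, such as 4, 7, 13, 14 and 15, while clusters 6 and 8 hardly differ.

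The genes whose levels ran most like these were found over the 14 clusters with at least 20 cells in every library, by Pearson's r of log2(mean CPM + 10) among 10319 genes. Clusters share libraries and depth, and r is a description. For Cntnap5a they were Shank1 (0.99), Dip2c (0.98) and Napb (0.98), and for Olfm1 Atp9a (0.95), Pclo (0.93) and Epm2aip1 (0.93). For Etv1 they were Itpk1 (0.91), Eef2k (0.90) and 1110065P20Rik (0.87), and for Ndnf Adamtsl1 (0.92), Dleu7 (0.91) and Aif1l (0.91). For Nrgn they were Lgals7 (0.97), Gm14204 (0.95) and Narf (0.94). These clusters leave out cluster 2, the main site of Nrgn, because control replicate 2 had 8 cells there. With it included, Nrgn was nearest to D2hgdh (0.95), Asic4 (0.94) and A230051N06Rik (0.94), while Itpk1, Atp9a and Shank1 still led for Etv1, Olfm1 and Cntnap5a. For Ndnf the leading gene became Chsy1 (0.87).

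The other genes of each pathway were listed without the 5 genes, and in Purkinje-like sums they are also a description beside the same 17.1% and 12.7% of all genes. Of 24 genes of calmodulin and protein kinase C signalling, 18 were measured, of which 8 had both mutants above both controls and none below, with a median log2 fold change of 0.20 against -0.0025 over all genes. They included Prkce, a protein kinase C (11.6 and 24.8 CPM in controls, 36.2 and 36.0 CPM in mutants), and Camk2g, a calmodulin kinase (26.2 and 12.4 CPM against 38.6 and 48.9 CPM). Both lie under the floor of control replicate 2, and the counts of higher genes in each list can include such values. That floor lies above both mutant values of Prkce, so control replicate 2 cannot be placed for it. Of 18 genes of Etv factors, Fgf receptors and their feedback, 6 were measured, none was higher and 2 were lower, with a median of -0.40. Fgf15, an Fgf ligand, was at 151 and 409 CPM in the control pools, against 64.0 and 116 CPM in the mutant pools, against the direction of Etv1.

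Of 17 olfactomedin and Nogo receptor genes, 9 were measured, none was higher and 4 were lower, with a median of -0.052. Rtn4r, the Nogo receptor, was at 42.2 and 49.5 CPM in the control pools, against 20.5 and 33.4 CPM in the mutant pools, and Adgrl3, a latrophilin adhesion receptor, at 477 and 483 CPM against 413 and 377 CPM. Of 12 other Cntnap and contactin genes, 6 were measured, 2 were higher and none was lower, with a median of 0.45. Cntnap2 was at 34.9 and 24.8 CPM against 48.3 and 55.3 CPM and Cntnap4 at 46.6 and 24.8 CPM against 57.9 and 63.0 CPM, both adhesion proteins related to Cntnap5a and both against its direction. For both, the value of control replicate 2 lies under its floor, which lies below the mutant values. Of 25 neuronal activity and maturation genes, 24 were measured, 9 were higher and none was lower, with a median of 0.26. Gria3, an AMPA receptor subunit, was at 30.6 and 37.2 CPM against 95.4 and 63.0 CPM, and Syn1, a synaptic vesicle protein, at 28.4 and 37.2 CPM against 60.3 and 41.1 CPM.

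Of 39 Purkinje subtype genes, 34 were measured, 4 were higher and 7 were lower, with a median of -0.41. Cdh9, a cadherin, was at 86.6 and 61.9 CPM in the control pools, against 15.7 and 21.9 CPM in the mutant pools, and Pax6, a transcription factor of the granule lineage, at 34.2 and 49.5 CPM against 9.66 and 11.6 CPM. In the tested sums no member of any list was called by edgeR. Among progenitor-like cells, 10 of 23 measured maturation genes had both mutants below both controls and none had both above, beside 16.5% and 20.8% of all genes, with a median of -0.49 against -0.036 over all genes.

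Cntnap5a lies near En1, and only mutants carry the floxed En1 allele, so that the mutation and DNA linked to it cannot be told apart for this gene. Of 55 other genes within 5 Mb of En1, 15 were measured in Purkinje-like sums. Both mutants lay above both controls for 3 and below for 1, with a median log2 fold change of -0.13. The lower one was Dpp10, a potassium channel partner, at 53.9 and 198 CPM in the control pools, against 53.1 and 47.6 CPM in the mutant pools, where the higher mutant nearly met the lower control. Among the higher ones was 2610027F03Rik, at 13.1 and 12.4 CPM in the control pools, against 36.2 and 39.9 CPM in the mutant pools. The floor of control replicate 2 lies between those mutant values, so that library cannot be placed. Within 10 Mb of En1, 26 genes were measured, with 4 higher and 3 lower and a median of -0.28, and Mcm6, a replication helicase subunit, was at 28.4 and 49.5 CPM against 12.1 and 20.6 CPM. Within 5 Mb of En2 on chromosome 5, which carries none of the 5 genes, 10 of 72 measured genes were higher and 6 lower, with a median of -0.0099. They included Chpf2, at 19.7 and 37.2 CPM against 9.66 and 10.3 CPM, and Slc4a1ap, at 13.1 and 12.4 CPM against 25.3 and 24.4 CPM. The floor of control replicate 2 lies above both mutant values of Slc4a1ap, so that library cannot be placed for it. Within 10 Mb of En2, 16 of 120 measured genes were higher and 12 lower, with a median of -0.0011.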

How the data were processed

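Per the labels and the submitters' processing notes, cells were sorted for tdT and libraries made with 10x Genomics 3' v3.1 chemistry, and counts came from Cell Ranger 6.1.0 on mm10. The deposited matrices hold whole UMI counts for each gene in each barcode, not normalized. Whether intron reads were counted is not given in the sources used here. No genome coordinates come from the count files. Gene limits come from GENCODE vM21 (32158 of 32286 identifiers matched).

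Cells were clustered with scanpy 1.11.5 (Scrublet per library, 2000 variable genes, 30 components, 15 neighbours, Leiden resolution 1). In both mutants Scrublet marked under 0.5% of cells, and doublets were then taken as the cells with top scores, 0.8% for each 1000 barcodes. In the mutants this removed 6.55% and 9.22%. In the controls Scrublet's own calls removed 4.30% and 1.19%, so the genotypes were filtered by different rules. A cluster took a marker list's name when at least 3 of its markers, 2 of the first 3 among them, were raised 1.5-fold (10 CPM added) in 1% of cells or more and no other list had more among its 10 leading genes. This rule was settled after the clusters were seen, and the classes are rebuilt, not the authors'.

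Counts were summed per library and class and compared with edgeR 4.0.16 (TMM, filterByExpr, quasi-likelihood, 2-sided, Benjamini-Hochberg at 0.05 over all genes tested). The SE is derived from the F statistic. DESeq2 1.42.0, RLE factors, no count filter, stricter cells (1000 genes, 5% mitochondrial), at least 2000 UMIs, doublets kept, resolution 2, clustering without the 5 genes, thinning, a replicate block and each library left out were alternatives. Cells under 1500 UMIs, cells without Sncg or Prph, clusters with 8 cells and a crossed pairing were added after seeing the data. The script was tested on simulated counts. There edgeR called 16.0%, 12.1% and 9.38% of 2-fold changes in interneuron-like, progenitor-like and all outside sums. Of 4-fold changes it called 87.8%, 94.9% and 76.8%. A gene without a call may therefore still have changed 2-fold. Intervals and floors (3 counts) cover counting error only.

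The 5 genes and all lists were chosen with earlier results of these data known. Further named genes were En1, En2, the 3 most alike by cluster, and from each list the 2 with the largest change among those with a mean of at least 20 CPM whose libraries did not overlap. Leading genes of a cluster and genes of a marker list are named where the cluster or list is described.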

Additional observations from a re-analysis of the deposited data

Results flagged for a closer look

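Olfm1 lay higher in both mutants than in both controls in Purkinje-like cells, at 819.5 and 739 CPM against 510.2 and 198 CPM, and lower in both in interneuron-like cells, at 114 and 102 CPM against 207 and 141 CPM. It was the only one of the 5 genes whose libraries separated in opposite directions in 2 of the classes. The interneuron-like log2 fold change was -0.72. The difference between the classes was not tested, because the Purkinje-like contrast chose the gene. In progenitor-like sums Olfm1 overlapped between genotypes, but it lay lower in both mutants within progenitor-like clusters 7 and 13. Outside the Purkinje-like class, 15 clusters had cells in every library. Olfm1 had both mutants below both controls in 9 of them and above both in 0. The same share over all genes was not computed by cluster.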

How the results depend on the processing

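In Purkinje-like sums the log2 fold changes of the 5 genes kept their sign in all 75 refits, and 6 moved by more than the spread between replicates. Those refits reuse the contrast that chose the genes and are a description. Of 16 alternatives, Etv1 passed the count filter in 15 and Ndnf in 12, and a refit without the gene is not counted. All 5 kept both mutants beyond both controls in the alternatives except the stricter cell filter (4) and cells under 1500 UMIs (3), which leave control replicate 2 with 6 cells each. Leaving out a library cannot undo such a separation, so those alternatives could not have failed. In the tested sums 158 of 191 refits of a gene kept direction and call, 10 gained a call and 23 changed sign. No gene was called by edgeR in the 3 tested sums. In interneuron-like, progenitor-like and all outside cells DESeq2 called 2, 4 and 56, and without the count filter edgeR called 36 and 134 in the first 2. The cause was not tested. Leaving out a library gave 0 to 1865, 0 to 2729 and 15 to 2727 calls, highest without control replicate 2, where the lone control is assumed to vary like the mutants.

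The labels do not say that a replicate number marks a shared batch. Deviations of same-numbered libraries correlated across genes at 0.070 (Purkinje-like), -0.28 (interneuron-like), -0.34 (progenitor-like) and -0.083 (all outside cells). The replicate block gave 2, 0 and 37 calls in interneuron-like, progenitor-like and all outside cells. A crossed pairing gave 0 calls in each of the first 2.

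Nrgn in all outside cells (-0.011) became 0.0092 with DESeq2, 0.00065 without the count filter, 0.050 with stricter cells, 0.15 with at least 2000 UMIs, 0.13 with doublets kept, 0.014 at resolution 2, 0.0054 with the genes left out of clustering, 0.15 when thinned and 0.23 with the replicate block. Nrgn in progenitor-like cells became 0.19 with the block, Etv1 in all outside cells -0.018 with at least 2000 UMIs, and Ndnf in interneuron-like cells 0.0036 without the count filter and 0.15 at resolution 2. With a library left out, Nrgn ran from -0.61 to 1.23 in all outside and from -0.77 to 2.26 in progenitor-like cells, and Etv1 from -0.51 to 0.84 in all outside, -0.40 to 0.67 in interneuron-like and -0.071 to 0.84 in progenitor-like cells. Olfm1 ran from -0.63 to 0.096 in progenitor-like and Ndnf from -0.25 to 0.20 in interneuron-like cells. Control replicate 2, with 28 Purkinje-like cells, limits each control value.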

Other observations

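Purkinje-like cells with a UMI of both Nrgn and Olfm1 made up 8.83% and 3.57% of control cells, against 18.2% and 10.2% of mutant cells, and those with both Etv1 and Olfm1 2.98% and 0% of control cells, against 8.16% and 6.70% of mutant cells. Cntnap5a and Ndnf were seen together in 1.70% and 3.57% of control cells, against 0% and 0.231% of mutant cells. At least 3 of the 5 genes were seen in 2.66% and 7.14% of control cells, against 4.20% and 2.31% of mutant cells. No expectation from the single shares or from depth was computed.

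Where Cntnap5a sits among the Purkinje cells of control replicate 1 depended on whether the 5 genes took part in the clustering. With them, control replicate 1 had 245 CPM in the Nrgn/Nrp2 subtype and 274 CPM in the Nefl/Cntn5 subtype. Without them it had 109 CPM (95% Poisson interval 88.2 to 133) in the first and 429 CPM (379 to 484) in the second. Ndnf of control replicate 1 moved alike, from 48.3 and 68.5 CPM to 32.5 and 84.9 CPM. Control replicate 2, with 8 and 20 cells, hardly moved. Its Cntnap5a was at 254 and 245 CPM with the genes and at 263 and 245 CPM without them. Its Ndnf was at 84.7 and 0 CPM with them and at 87.6 and 0 CPM without them. In mutants Cntnap5a stayed low in both subtypes without the genes, at 28.2 and 34.0 CPM in the first and 104 and 110 CPM in the second.

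Of the 10 mutant cells with most Olfm1, 2 and 3 had a UMI of Sncg or Prph, and their Purkinje markers summed to 1816 and 2038 CPM against 4201 and 4535 CPM in the remaining cells. Without cells that had a UMI of either gene, the Olfm1 log2 fold change was 1.00 in place of 1.04.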
